A study of Mus musculus with 8 samples.

Results

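The unfolded protein response and the integrated stress response were followed through 10 genes in newborn mouse brain after maternal cadmium (Cd) exposure. The 10 genes, *Atf4*, *Atf3*, *Ddit3*, *Xbp1*, *Asns*, *Chac1*, *Trib3*, *Hspa5*, *Hsp90b1* and *Herpud1*, were taken by symbol as known transcription factors and targets of these responses. Earlier results of these data were known when they were chosen. All 10 were found among the 49585 genes of the count table for the C57BL/6J genome. RNA was sequenced from whole brains of 8 B × C F1 females, pups of a C57BL/6J mother and a CAST/EiJ father collected within a day of birth. Their mothers drank water with 0 ppm Cd (4 control brains) or 50 ppm Cd, given as cadmium chloride (4 exposed brains), from before mating until birth, and each pup came from a different litter. Both doses shared cross, sex and age. The question was whether maternal exposure to Cd changed RNA of these stress genes in the newborn brain.

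The endoplasmic reticulum (ER) folds secreted and membrane proteins, and misfolded protein there is sensed by PERK, IRE1 and ATF6, which raise chaperones, degradation factors and the transcription factor XBP1. PERK and other kinases phosphorylate the initiation factor eIF2alpha, which slows translation in general while favouring translation of ATF4, and ATF4 in turn induces genes for amino acid supply and, under lasting stress, *Ddit3* and *Trib3*. In newborn brain these genes also serve the normal load of secreted and membrane protein in growing neurons and glia.

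The promoters of some members carry a recognizable element of these responses, and the matches are shown as a description. The ER stress element, CCAAT and CCACG with any 9 bases between them, is read by ATF6 with NF-Y. The C/EBP-ATF response element TGATGNAA, where N is any base, is read by ATF4 with its partners. Both were searched on both strands in RefSeq promoter windows of GRCm38.p6, from 250 bases before to 50 bases after a gene's start. No member had matches to both elements. The ER stress element was found in 39 of 32851 windows (0.119%) and in those of 2 of 10 members, *Hspa5* and *Hsp90b1*, the latter with 2 matches. It was also found in 5 of the 13 other ER chaperones and folding enzymes that have a window, *Calr*, *Canx*, *Pdia6*, *Creld2* and *Dnajc3*. The matches are written 5′ to 3′ in the direction of the gene with the element in capitals, so that a match on the opposite strand appears as its reverse complement.
Hspa5, chr2:34772020-34772048, plus strand: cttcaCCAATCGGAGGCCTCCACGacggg
Hsp90b1, chr10:86705633-86705661, minus strand: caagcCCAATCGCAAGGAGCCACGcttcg
Hsp90b1, chr10:86705528-86705556, minus strand: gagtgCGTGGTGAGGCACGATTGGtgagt
Calr, chr8:84847070-84847098, minus strand: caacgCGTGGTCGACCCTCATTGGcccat
Pdia6, chr12:17266486-17266514, plus strand: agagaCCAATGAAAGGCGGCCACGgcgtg

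The match at *Hspa5* began 65 bases before the RefSeq start, and those at *Hsp90b1* began 212 and 107 bases before it. The C/EBP-ATF response element was found in 3.97% of all windows, in those of 5 of 10 members (*Asns*, *Atf3*, *Chac1*, *Herpud1* and *Trib3*) and in 0 of the 13 other chaperones. *Atf4*, *Ddit3* and *Xbp1* had a match to neither element. The 4 C/EBP-ATF matches of members that lie before the start are shown as the members to set beside *Atf4*, again with the element in capitals.
Asns, chr6:7693214-7693243, minus strand: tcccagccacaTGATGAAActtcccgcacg
Chac1, chr2:119351038-119351067, plus strand: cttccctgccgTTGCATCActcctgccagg
Atf3, chr1:191183425-191183454, minus strand: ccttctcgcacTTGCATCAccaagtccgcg
Herpud1, chr8:94386306-94386335, plus strand: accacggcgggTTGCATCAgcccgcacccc

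In the GENCODE M21 annotation of GRCm38, *Hspa5* (chr2:34771970-34777547), *Asns* (chr6:7675169-7693254) and *Atf3* (chr1:191170296-191218039) begin farther upstream, so their matches lie inside the annotated gene there. A match describes letters in a window and is neither a shown binding site nor a cause of any level below.

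Total counts lay between 22916434 and 30708087 per library, so that 3 counts stood for 0.0980 to 0.132 CPM (counts scaled to the normalized library size). The summed level of 6 neuron markers was at least 3842 CPM in every library. Of these markers, 5 exceeded 3 counts in at least 1 library, and the remaining one, *Tubb3*, was listed at 0 in all 8. The exons of *Tubb3* overlap those of no other gene in GENCODE M21, which is not the release used for counting, and the reason for the 0 was not tested. Control replicates 1 and 2 had the lowest scores of 15 brainstem and spinal cord genes, a mean log2 CPM of 0.39 and 1.07. Control replicates 3 and 4 stood at 2.02 and 1.88 and the exposed brains at 2.00 to 2.43, so the score went partly with dose. The summed level of 6 microglia markers was 75.5 to 86.8 CPM in control and 89.3 to 107.6 CPM in exposed brains, that of 6 oligodendrocyte markers 97.8 to 129 and 127 to 195 CPM, and that of 6 astrocyte markers 694 to 921 and 911 to 1059 CPM. That of 6 liver and pancreas markers was at most 1.37 CPM. In whole brain, fewer cells of a type and less RNA per cell cannot be told apart.

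At 0 ppm the members spanned a wide range of levels per kilobase of exon. The ER chaperones were highest, *Hspa5* at 77.4 ± 13.0 and *Hsp90b1* at 74.4 ± 9.02 CPM per kb (SD, n = 4), and these neighbours did not differ beyond their spread. *Atf4* followed at 41.0 ± 3.61 CPM per kb, then *Asns* at 25.1 ± 0.398 and *Xbp1* at 21.5 ± 3.79, whose ranges overlapped. *Herpud1* stood at 12.3 ± 1.08 CPM per kb, apart from *Xbp1* above it and from *Ddit3* (3.74 ± 0.535) and *Chac1* (3.68 ± 0.928) below it, and the latter pair overlapped. The stress-induced genes *Trib3* (0.520 ± 0.145) and *Atf3* (0.327 ± 0.0990) were lowest, and their ranges overlapped by a narrow margin, since the lowest *Trib3* value was 0.438 and the highest *Atf3* value was 0.449 CPM per kb. The plot of members by library shows these genes on the CPM scale, without the length correction.

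**Figure D1:**
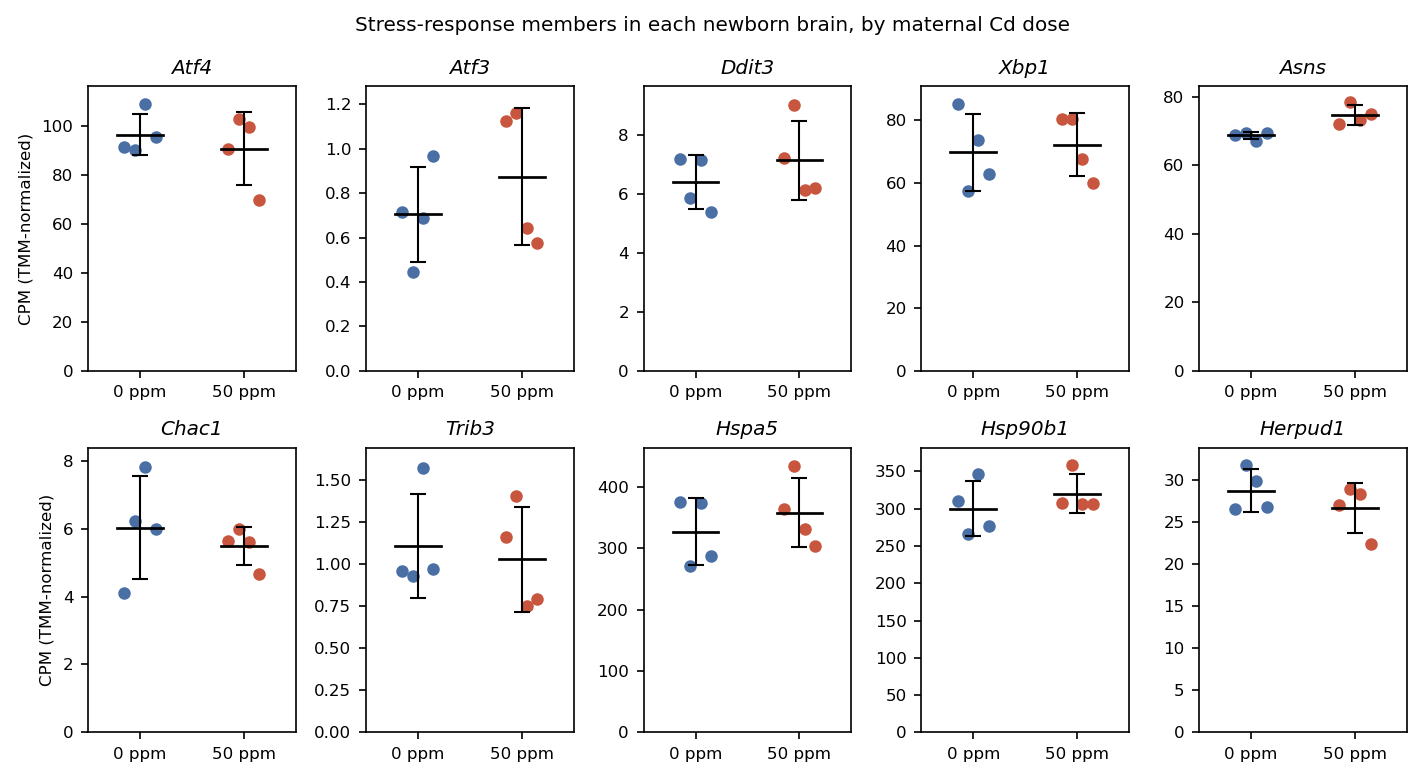
CPM of each member in the 4 control (0 ppm, blue) and 4 exposed (50 ppm, red) brains, 1 point per brain, with the mean (long bar) and SD (error bar); each panel has its own axis from 0. The groups overlap in all panels but that of *Asns*, where the exposed brains lie between 72.0 and 78.6 CPM and the control brains between 67.2 and 69.6.

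No member passed the test for a difference between doses. In edgeR's quasi-likelihood test, with p-values adjusted over 23113 genes by the Benjamini-Hochberg method, 0 of 10 members passed an adjusted p of 0.05 and 0 of 10 an unadjusted one. DESeq2 also called 0 of 10 at either threshold. The same edgeR fit called 4 of all genes tested (0.0173%), and 3.75% had an unadjusted p under 0.05. DESeq2 called 22 of them (0.0952%), and 2.81% had an unadjusted p under 0.05. The adjusted p of every member was 0.999, 6 members had a positive and 4 a negative log2 fold change, and their median was 0.07 against -0.0033 over all genes tested. All 10 passed the filter on low counts. The 95% intervals of 7 members lay within 0.5 log2 units on either side of no change, and those of 9 within 1 unit, *Atf3* being the exception.

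None of the 4 transcription factor genes passed the test. *Atf4*, which encodes the factor whose translation eIF2alpha phosphorylation favours, stood at 91.6, 90.3, 108.9 and 95.6 CPM in the control brains and 90.5, 102.9, 99.6 and 69.8 CPM in the exposed brains. A single exposed brain, replicate 4, lay below all others, and the groups otherwise overlapped. That brain also had the lowest total count, and the total count is set beside *Atf4* below. The log2 fold change of *Atf4* was -0.09 (SE 0.10, 95% interval -0.30 to 0.12). Since ATF4 is controlled largely at translation, its RNA level does not measure its activity.

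*Ddit3*, which encodes CHOP, a factor tied to death under lasting ER stress, stood at 7.20, 5.88, 7.15 and 5.38 CPM in control and 7.23, 9.02, 6.14 and 6.22 CPM in exposed brains. Exposed replicate 2 was the highest of the 8 brains and the groups overlapped. The log2 fold change was 0.16 (SE 0.16, interval -0.17 to 0.49). In the GRCm38 annotation (GENCODE M21) 4.73% of the exon bases of *Ddit3*, chr10:127290774-127296288, lie opposite exons of other genes, among them the methionyl-tRNA synthetase gene *Mars*, and 6.13% are shared with another gene model on its own strand.

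*Xbp1*, whose RNA is spliced by IRE1 to give the active factor, stood at 85.2, 57.3, 73.5 and 62.7 CPM in control and 80.4, 80.4, 67.5 and 60.1 CPM in exposed brains. Both doses held high and low brains, and the log2 fold change was 0.05 (SE 0.11, interval -0.19 to 0.29). Gene counts do not separate the spliced from the unspliced form. *Atf3*, an immediate stress-induced repressor, had only 12 to 33 counts per library, at 0.704 ± 0.213 CPM in control and 0.874 ± 0.309 CPM in exposed brains (SD, n = 4). Its log2 fold change of 0.33 had the widest interval of the members, -0.35 to 1.00 (SE 0.32).

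*Asns*, which encodes asparagine synthetase, was the only member whose groups did not overlap. It stood at 69.0, 69.6, 67.2 and 69.3 CPM in the control brains and at 72.0, 78.6, 73.1 and 75.0 CPM in the exposed brains. All 4 exposed brains lay above all 4 control brains, a pattern seen in 1.19% of all genes tested in this direction and in 2.09% in either. The means were 68.8 ± 1.09 and 74.7 ± 2.90 CPM (SD, 4 brains each), and the log2 fold change was 0.12 (SE 0.07, interval -0.02 to 0.26). The exact two-sided permutation test of *Asns* gave p = 0.0286, the smallest that 70 labellings of the brains allow and one that any 2 groups of 4 without overlap reach, while edgeR's unadjusted p was 0.0919 and its adjusted p 0.999. The summed microglia markers, given above, also did not overlap between doses, and the oligodendrocyte and astrocyte sums overlapped only narrowly. Over the 8 brains *Asns* had r = 0.712 with the microglia sum and 0.628 with the astrocyte sum (exact permutation p = 0.0481 and 0.0952, both 0.477 after adjustment over 90 relations of members with library measures). Within the doses r was -0.786 and 0.507 with the microglia sum, and -0.919 and 0.450 with the astrocyte sum (4 brains each).

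*Chac1* and *Trib3*, also ATF4 targets, had negative fold changes that did not pass the test. *Chac1*, whose enzyme degrades glutathione, stood at 4.10, 6.21, 7.80 and 6.00 CPM in control and 5.65, 6.00, 5.60 and 4.68 CPM in exposed brains. The control brains held both the lowest and the highest value, and the log2 fold change was -0.13 (SE 0.18, interval -0.50 to 0.23). *Trib3*, a pseudokinase gene that feeds back on ATF4 and CHOP, stood at 0.956, 0.930, 1.57 and 0.968 CPM in control and 1.16, 1.40, 0.749 and 0.794 CPM in exposed brains, from 18 to 48 counts per library. Control replicate 3 was the highest brain, and the log2 fold change was -0.10 (SE 0.28, interval -0.70 to 0.49).

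None of the 3 genes of ER chaperones and degradation passed the test. *Hspa5*, which encodes BiP, the main chaperone of the ER lumen and the regulator of its stress sensors, stood at 374.9, 271.7, 374.9 and 288.5 CPM in control and 365, 434, 331 and 304 CPM in exposed brains. The highest brain was 1.60 times the lowest, and the control brains split into a higher and a lower pair. The log2 fold change of *Hspa5* was 0.13 (SE 0.11, interval -0.11 to 0.37).

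*Hsp90b1*, which encodes the ER chaperone GRP94, stood at 310.3, 266.5, 347 and 277 CPM in control and 307, 359, 307 and 306 CPM in exposed brains. Exposed replicate 2 was the highest brain, the other exposed brains lay close together, and the log2 fold change was 0.09 (SE 0.08, interval -0.09 to 0.27). Of its exon bases on chr10:86690209-86705509, 10.3% lie opposite another gene and 5.38% are shared with other models on its strand. *Herpud1*, an ER membrane gene for degradation of misfolded protein, stood at 28.7 ± 2.53 CPM in control and 26.6 ± 2.97 CPM in exposed brains, with a log2 fold change of -0.11 (SE 0.10, interval -0.32 to 0.10). Its brains ranged from 22.3 to 31.7 CPM, and the groups overlapped.

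No other gene of these pathways passed the adjusted threshold. Of 83 listed, 82 were tested, and 0 passed edgeR's adjusted p of 0.05 or that of DESeq2. An unadjusted p under 0.05 was reached by 1 of 82, against 3.75% of all genes, and by 1 of 82 in DESeq2. That gene was *Bbc3*, which encodes the cell death factor PUMA, at 24.8 ± 3.18 CPM in control and 20.1 ± 4.37 CPM in exposed brains (log2 fold change -0.31, SE 0.13, unadjusted p = 0.0352 and adjusted p = 0.999 by edgeR). An exact two-sided permutation test of *Bbc3* gave p = 0.2.

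**Figure D2:**
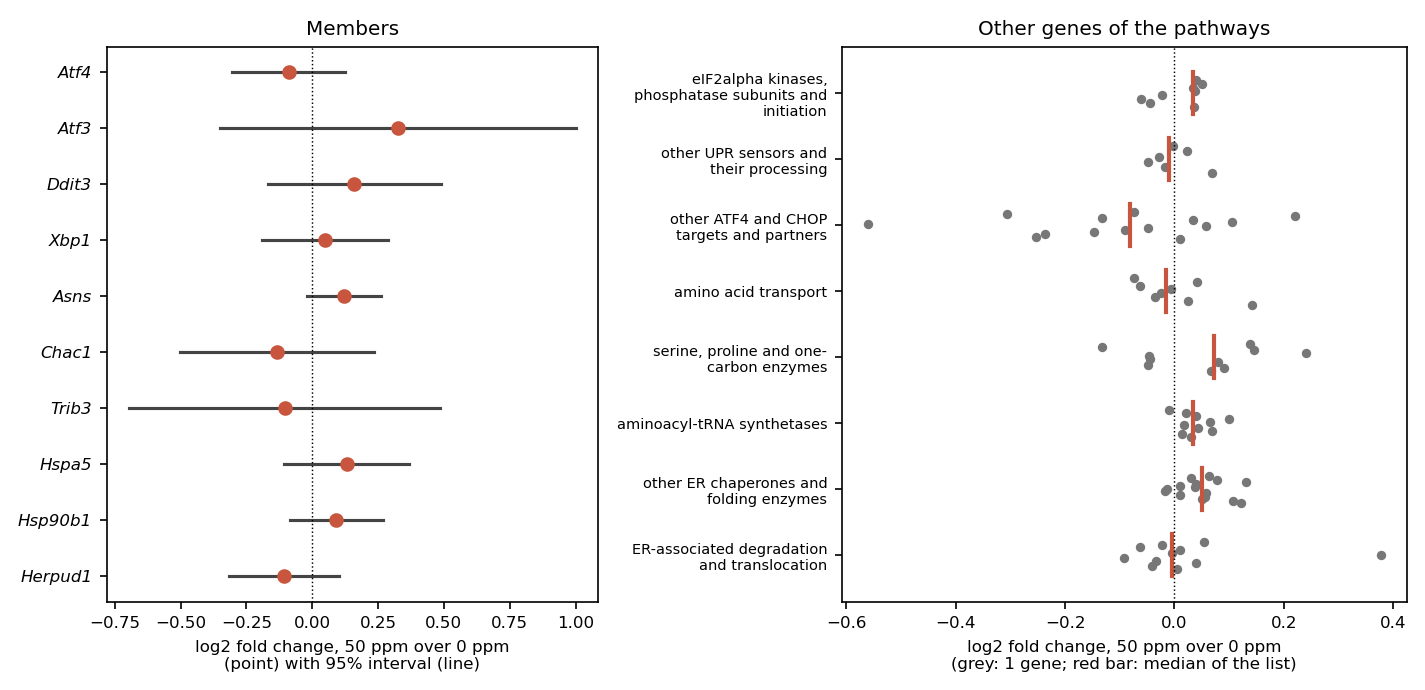
Left, fitted log2 fold change of each member (point) with its 95% interval (line). Right, fitted log2 fold changes of the 82 other pathway genes by list (grey, 1 point per gene) with the list's median (red bar). All 10 member intervals cross 0, and the list medians lie between -0.08 and 0.07.

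No list moved away from the median of all genes by more than 0.1 log2 units, and no gene in them is called changed. Among the 8 eIF2alpha kinases, phosphatase subunits and initiation factors, 5 fold changes were positive and 3 negative, from -0.06 for *Eif2ak3*, which encodes PERK, to 0.05 for *Eif2s1*, which encodes eIF2alpha. The 6 sensors and their processing genes ran from -0.05 (*Atf6b*) to 0.07 (*Ern1*, which encodes IRE1alpha). The 14 other targets and partners of ATF4 and CHOP were 5 positive and 9 negative, the lowest being the hormone gene *Fgf21* (-0.56, with 0 to 3 counts per library) and the highest the translation repressor gene *Eif4ebp1* (0.22).

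Of the 8 amino acid transport genes, 3 were positive and 5 negative, from -0.07 (*Slc1a5*) to 0.14 (the cystine transporter gene *Slc7a11*). Serine, proline and one-carbon enzymes were 6 positive and 4 negative, from -0.13 (*Pck2*) to 0.24 (*Pycr1*). Aminoacyl-tRNA synthetases were 9 positive and 1 negative, from -0.01 (*Eprs1*) to 0.10 (*Mars1*). ER-associated degradation and translocation genes were 5 positive and 6 negative, from -0.09 (*Derl2*) to 0.38 (*Derl3*, with 6 to 14 counts per library).

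The 15 other ER chaperones and folding enzymes were 13 positive and 2 negative with a median of 0.05, where 49.0% of all genes tested were positive. These directions are not separate observations, since several of the genes varied together among brains, as described below. The range ran from -0.02 for *Hyou1* to 0.13 for *Dnajb11*, a BiP co-chaperone gene, which was not called (edgeR's unadjusted p = 0.105). *Dnajb11* stood at 60.5, 60.8, 61.0 and 55.8 CPM in control and 61.4, 73.5, 61.9 and 64.1 CPM in exposed brains. All exposed values of *Dnajb11* lay above all control values, by a narrow margin for exposed replicate 1. It was the only 1 of the 82 genes without overlap between doses, against 2.09% of all genes tested.

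Several members varied among brains of both doses, and for some of them the same brains were high or low. Over all 8 brains the coefficient of variation was 15.8% for *Hspa5*, 16.8% for *Ddit3* and 14.8% for *Xbp1*, against a median of 8.67% over the 11786 genes with a mean of at least 5 CPM. *Chac1* varied by 19.1%, *Hsp90b1* by 10.05% and *Herpud1* by 10.1%, and *Asns* varied least of the members, by 5.24%. The values of *Hsp90b1* and *Herpud1* were higher than those of 62.4% and 62.5% of these genes. The median spans all levels, whereas *Ddit3* (mean 6.78 CPM) and *Chac1* (5.76 CPM) lay near the limit of 5 CPM, where counting error weighs more. Control replicates 2 and 4 were the lowest of the 8 brains for *Hspa5*, *Hsp90b1* and *Ddit3*, and exposed replicate 2 was the highest for all 3. *Xbp1* and *Chac1* departed from this order in part, *Xbp1* being highest in control replicate 1 and *Chac1* lowest in that brain.

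Correlations of log2 CPM were computed over the 8 brains for all 45 pairs of members, with exact permutation tests over 40320 pairings. *Hspa5* and *Hsp90b1* rose and fell together, with Pearson's r = 0.908 and Spearman's rho = 0.976 (exact permutation p = 3.97e-04 for each, 0.0179 after Benjamini-Hochberg adjustment over the pairs). Without the 2 brains farthest from the median of *Hspa5* r was 0.752, and within the doses it was 0.924 at 0 ppm and 0.881 at 50 ppm (4 brains each). At 50 ppm, *Hsp90b1* stood at 359 CPM in exposed replicate 2 and at 306 to 307.1 CPM in the other exposed brains. *Hspa5* and *Ddit3* gave r = 0.940 (exact permutation p = 0.00146, adjusted 0.0329) and rho = 0.881 (exact permutation p = 0.00724, adjusted 0.0964). Without the 2 farthest brains r was 0.949, and within the doses 0.923 and 0.965.

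*Hspa5* and *Xbp1* gave r = 0.902 (exact permutation p = 0.00399, adjusted 0.0583) and rho = 0.857 (exact permutation p = 0.0107, adjusted 0.0964), with r = 0.90 without the 2 farthest brains and 0.936 and 0.884 within the doses. These were 3 of the 4 pairs with r of at least 0.8, the other being *Ddit3* and *Hsp90b1*. In all, 39 of 45 pairs had a positive r, 6 had an unadjusted p under 0.05 for r, and 2 passed after adjustment.

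**Figure D3:**
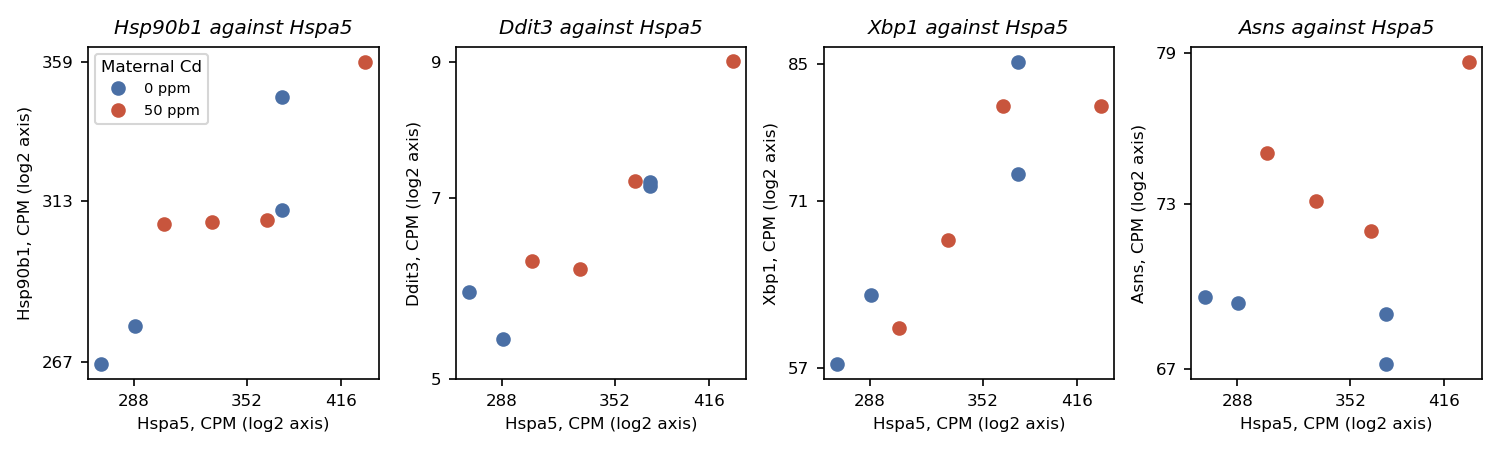
CPM of *Hsp90b1*, *Ddit3*, *Xbp1* and *Asns* against CPM of *Hspa5* in 8 brains, 1 point per brain, on log2 axes (blue, 0 ppm; red, 50 ppm). The first 3 genes climb with *Hspa5* in both doses (r = 0.908, 0.940 and 0.902), while the doses do not overlap in *Asns* (r = 0.337).

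The pairs of *Hspa5* with *Herpud1* and with *Atf4* did not pass the same test, nor did those of *Atf4* with other members. *Hspa5* against *Herpud1* gave r = 0.0901 and rho = -0.0238 (exact permutation p = 0.845 and 0.977, adjusted 0.960 and 0.977), and *Hspa5* against *Atf4* gave r = 0.470 and rho = 0.571 (exact permutation p = 0.244 and 0.151, adjusted 0.537 and 0.400). *Atf4* against its target *Asns* gave r = -0.250 and rho = -0.214 (exact permutation p = 0.554 and 0.619, adjusted 0.779 and 0.899). That value rested on the brains far from the median, since r was 0.799 without the 2 farthest brains.

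*Atf4* against *Trib3* gave r = 0.616 and rho = 0.571, and against *Chac1* r = 0.638 and rho = 0.452, with an adjusted p of 0.299 for both r by exact permutation tests. Without the 2 brains farthest from the median of *Atf4* these r fell to 0.203 and 0.283. The highest r of *Atf4* with a member was that with *Herpud1*, 0.776 (rho = 0.429, exact permutation p = 0.0413 and 0.299, adjusted 0.299 and 0.585), but r was 0.0076 without the 2 farthest brains. *Atf4* gave r = 0.334 with *Ddit3* (adjusted 0.643) and 0.343 with *Atf3* (adjusted 0.648), and *Atf3* against *Ddit3* gave r = 0.519 (adjusted 0.469), by the same exact permutation tests. With 8 brains these values do not show that such pairs vary independently.

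The shared order extended to other ER chaperones. Calreticulin (*Calr*), whose element is printed above, stood at 459, 277, 467.5 and 335 CPM in control and 436, 510.1, 393 and 336 CPM in exposed brains, and followed *Hspa5* with r = 0.977 and rho = 0.976 (exact permutation p = 4.96e-05 and 3.97e-04, that of r 7.44e-04 after adjustment over the 15 genes). Without the 2 farthest brains r was 0.988, and within the doses it was 0.986 and 0.987. The lowest and highest brains for *Calr* were those for *Hspa5*.

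Of the 15 other chaperones and folding enzymes, 7 passed an adjusted p of 0.05 for r with *Hspa5* in exact permutation tests. These were *Calr*, the disulfide isomerase genes *Pdia4* (r = 0.928), *Pdia6* (0.925) and *Pdia3* (0.892), the prolyl isomerase gene *Fkbp2* (0.90), the nucleotide exchange factor gene *Hyou1* (0.889) and the lectin chaperone gene *Canx* (0.776, but 0.452 without the 2 farthest brains). They are named because they passed, after their values were seen. An r of at least 0.9 with *Hspa5* was reached by 4 of the 15 and by 0.416% of the 11778 genes outside the members with a mean of at least 5 CPM, and one of at least 0.8 by 6 of the 15 and by 2.22%. The lowest was *Dnajb9*, a co-chaperone gene and IRE1-XBP1 target, with r = -0.151. Of the 5 genes with an ER stress element in their window, *Calr*, *Pdia6* and *Canx* were among the 7, while *Creld2* (r = 0.712) and *Dnajc3* (r = 0.328) were not. Of the 15 genes only 13 have a window, and a gene without one was not searched. No match was found for the other genes that passed, *Pdia3*, *Pdia4*, *Hyou1* and *Fkbp2*. Nor was a match found for *Ddit3* and *Xbp1*, members with an r of at least 0.9 with *Hspa5*. Whether the element has a part in the shared order was not tested.

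**Figure D4:**
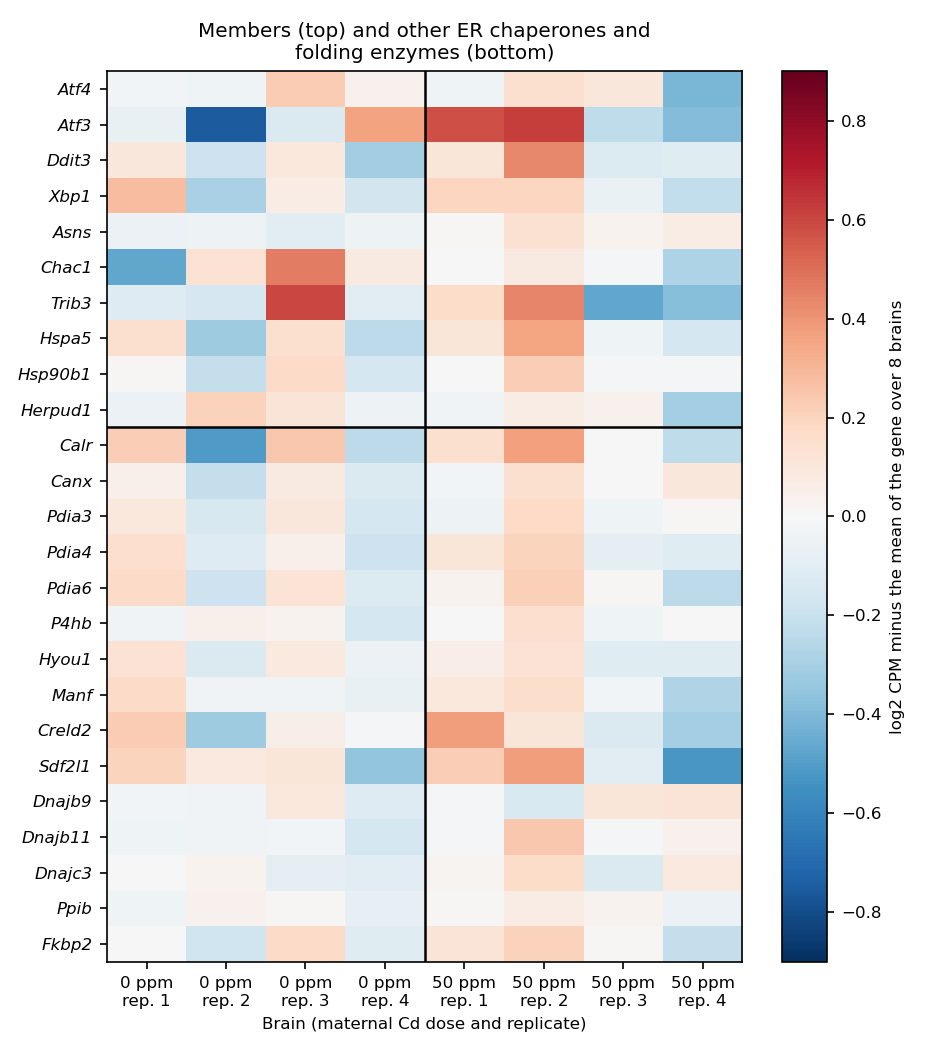
Log2 CPM of each member (above the line) and each of 15 other ER chaperones and folding enzymes (below it) in each brain, as the difference from that gene's mean over 8 brains (red, higher; blue, lower). Control replicates 2 and 4 are low and exposed replicate 2 is high for *Hspa5*, *Hsp90b1*, *Ddit3* and *Calr*, and both doses hold brains above and below the mean.

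Among these 11778 genes, the 3 most like *Hspa5* by Pearson's r of log2 CPM over the 8 brains were *Calr* (0.977), *Ostc* (0.973), which encodes a subunit of the ER oligosaccharyltransferase complex, and *Tubb4b* (0.971), which encodes a beta-tubulin. Those most like *Atf4* were *Ptma* (0.977), *Rpl41* (0.964), a ribosomal protein gene, and *Zfp428* (0.960). An r of at least 0.9 with *Atf4* was reached by 0.297% of the 11778 genes.

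Some measures of the libraries had a high r with members, but no such relation passed adjustment. The log2 total count of the libraries had r = 0.633 and rho = 0.786 with *Hspa5* (exact permutation p = 0.0861 and 0.0279), and the summed level of 10 immediate early genes, which respond to neuronal activity, had r = 0.755 and rho = 0.643 (exact permutation p = 0.0349 and 0.0962). Without the 2 brains farthest from the median of each measure, these r were 0.751 and 0.556. For *Hsp90b1* and the immediate early genes r was 0.855 (exact permutation p = 0.0103), and 0.499 without the 2 farthest brains. The log2 total count had its highest Pearson's r with *Atf4*, 0.844 (rho = 0.738, exact permutation p = 0.0156 and 0.0458). Without the 2 brains farthest from the median total count that r was 0.0723. With *Xbp1* r was 0.701 (exact permutation p = 0.0437), and 0.817 without those brains. Of 90 relations between members and library measures, none passed Benjamini-Hochberg adjustment, the lowest adjusted p by exact permutation being 0.477. The brainstem and spinal cord score gave r = 0.196 with *Hspa5*. The part of these measures in the shared order was not tested. With log2 total count as a covariate in edgeR's test, a choice made after seeing the data, the log2 fold change of *Hspa5* between doses was 0.24 (SE 0.09, adjusted p = 0.999) in place of 0.13. With that covariate the log2 fold change of *Atf4* was -0.013 (SE 0.08) in place of -0.09. Without exposed replicate 2 the log2 fold change of *Hspa5* was 0.025, and that of *Ddit3* was 0.027 in place of 0.16.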

How the data were processed

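Messenger RNA of 8 newborn whole brains was sequenced from strand-specific poly(A) libraries, single-end. The authors trimmed the first 10 bases, aligned reads with STAR to GRCm38 (Ensembl release 87), counted them per gene with htseq-count and deposited raw counts without normalization; the strand setting of the counting is not given in the sources used here, so reads of overlapping genes may not be separable. Counts from the alignment to the CAST/EiJ genome were not used, because 0 of the 120 identifiers paired with a gene here are members.

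Genes at 0 counts in more than 2 of every 3 libraries were left out, as in the study. CPM were computed with TMM library sizes and tested with edgeR 4.0.16 (R 4.3.3) glmQLFit and glmQLFTest with dose as the only term, and intervals are 95%. Correlations and permutation tests (scipy 1.17.1) used log2 CPM with a prior count of 2. Levels per kilobase used the union of GENCODE M21 exons. Alternatives were DESeq2 1.42.0, its size factors, other filters, limma-voom (limma 3.58.1), covariates and each library left out. The code was tested on simulated data. All members, and in each pathway list the genes with the highest and lowest fold change and those with an unadjusted p under 0.05, are named. The members and lists were chosen with earlier results of these data known. Replicate numbers follow accession order and only name brains. P-values reflect the spread between pups, and the floor of 3 counts covers counting error only.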

Additional observations from a re-analysis of the deposited data

Results flagged for a closer look

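In 20 sets of 4 brains (10 members at 2 doses), 2 held a brain far from the others by Dixon's criterion, which chance meets in about 1 of 20 sets. *Trib3* at 0 ppm was 1.57 CPM in replicate 3 against 0.930 to 0.968 CPM in the other control brains, and the gap made up 0.940 of the range. *Hsp90b1* at 50 ppm was 359 CPM in replicate 2 against 306 to 307.1 CPM in the other exposed brains, a gap of 0.978 of the range. The same exposed brain was the highest for *Hspa5*, *Ddit3* and *Calr*.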

How the results depend on the processing

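No member and no pathway gene passed an adjusted p of 0.05 under any of 17 alternatives, and the lowest adjusted p of a member was 0.936. Members with an unadjusted p under 0.05 (0 as reported) numbered 1 with a covariate for brainstem and spinal cord score (*Chac1*, -0.49) and 1 with log2 total count as a covariate (*Hspa5*, 0.24, edgeR's unadjusted p = 0.0147), and 0 to 1 with each brain left out (*Hsp90b1*, 0.17, without control replicate 3). The pathway count of 1 became 2 without a filter, 2 with either covariate, 2 without the control brains of lowest brainstem and spinal cord score, and 0 to 3 with each brain left out: 0 without control replicate 4 or exposed replicate 4, and 3 without control replicate 3 or exposed replicate 1. Over all genes tested the same threshold was passed by 1013 of 27077 without a filter and 1020 of 23841 without those control brains. It was passed by 986 of 23113 with the brainstem and spinal cord covariate and 845 of 23113 with total count. Without control replicate 3 or exposed replicate 1 it was 1155 of 22727 and 886 of 22712. Without control or exposed replicate 4 it was 792 of 22722 and 729 of 22773. The total count covariate and the omission of those control brains were chosen after seeing the data. The log2 fold change of *Trib3* turned to 0.035 with log2 total count, and that of *Atf4* moved to -0.013. With each brain left out, 4 members crossed 0: *Atf4* from -0.16 to 0.016, *Xbp1* from -0.034 to 0.16, *Chac1* from -0.28 to 0.017 and *Trib3* from -0.29 to 0.12. The other 6 kept their sign, but *Hspa5* ranged from 0.025 to 0.20, *Ddit3* from 0.027 to 0.23 and *Hsp90b1* from 0.031 to 0.17, each lowest without exposed replicate 2, *Atf3* from 0.16 (without exposed replicate 2) to 0.51, *Herpud1* from -0.15 to -0.034 (without exposed replicate 4), and *Asns* from 0.093 to 0.14. The brainstem and spinal cord covariate moved *Atf3* from 0.33 to 0.042, *Atf4* from -0.09 to -0.19, *Xbp1* from 0.05 to 0.14, *Hsp90b1* from 0.09 to 0.041 and *Trib3* from -0.10 to -0.45. Because that score went partly with dose, the fit with this covariate cannot fully separate the score from dose. The causes were not tested. No paired analysis was possible because the labels give no replicate numbers shared between doses and each pup came from another litter. Low counts limited *Atf3* and *Trib3*.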
